A study of Mus musculus with 5 samples.

Results

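Lysosomes are acidic organelles that break down protein, glycan and lipid delivered by endocytosis, phagocytosis and autophagy. Their degradation rests on proteases, glycosidases and lipid hydrolases in the lumen, on glycosylated membrane proteins that line and transport, and on the vacuolar proton pump (V-ATPase), which acidifies the lumen through a membrane sector (V0) driven by an ATP-hydrolysing cytosolic sector (V1). Many of these genes share a promoter element of the CLEAR type that the transcription factor TFEB binds, and in brain they are highly used by microglia and astrocytes that clear debris and amyloid.

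The 51 genes described here are lysosomal hydrolases with their cofactors, lysosomal membrane proteins with TFEB, and proton pump subunits, taken by gene symbol from a deposited table of 18783 genes; all 51 were found. RNA was sequenced from primary astrocyte cultures of newborn (P0 to P1) C57BL/6 mouse pups harvested on day 12 in vitro. One library came from cultures given amyloid-β (Aβ, 1 µM) with the ornithine decarboxylase inhibitor DFMO (difluoromethylornithine, 50 µM) for 5 days (Aβ+DFMO), 2 libraries from cultures given Aβ at 1 µM for 5 days (Aβ), and 2 from naive cultures (Control). No group received DFMO without Aβ. Whether the 2 libraries of a pair are separate cultures is not stated in the labels, so the p-values measure only the spread between these libraries, which may be technical.

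The Aβ+DFMO library had 4825677 reads, against a mean of 62781796 over the other 4 libraries, computed from the authors' average. Each gene has one normalized mean per group, set by the authors, so no library of a pair can be shown on its own, and every difference of Aβ+DFMO rests on 1 shallow library. That group has no spread of its own, so p-values for it take the spread from the other libraries and assume that the lone library varies as they do. All 12 astrocyte markers examined, among them Gfap, Aqp4 and Aldoc, were detected in every group, but so were all 21 microglia and macrophage markers and all 12 oligodendrocyte lineage markers. Summed microglial marker signal was 46728 in Aβ+DFMO, 64636 in Aβ and 68056 in Control. Of these sums the macrophage marker Lyz2 alone made up 23385, 33225 and 25844, in the same order of groups. Summed oligodendrocyte marker signal was 26181, 47902 and 48352, and summed astrocyte marker signal 156864, 200413 and 201556, in that order. Other lists were highest in Aβ+DFMO. Summed fibroblast and mural cell marker signal was 96201, 82591 and 80172, of which Acta2 alone made up 81013, 66644 and 65706. Summed neuronal marker signal was 22685, 19265 and 19744, in the same order. In such bulk samples fewer cells of a type and less RNA per cell cannot be told apart, and the part of cell makeup in the results below was not tested.

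To show the CLEAR element in its place, the 250 bases before the RefSeq start (GRCm38.p6) follow for each member in which the 8-letter word TCACGTGA, the core of the CLEAR element, lay wholly before the start. Capitals mark that word.
Ctsa (chr2:164833523-164833772, plus strand): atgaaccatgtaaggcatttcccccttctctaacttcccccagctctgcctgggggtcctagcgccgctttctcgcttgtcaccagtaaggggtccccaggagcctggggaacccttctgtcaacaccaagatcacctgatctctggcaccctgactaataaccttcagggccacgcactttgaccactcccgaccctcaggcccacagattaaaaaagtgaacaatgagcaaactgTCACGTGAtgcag
Ctsd (chr7:142387828-142388077, minus strand): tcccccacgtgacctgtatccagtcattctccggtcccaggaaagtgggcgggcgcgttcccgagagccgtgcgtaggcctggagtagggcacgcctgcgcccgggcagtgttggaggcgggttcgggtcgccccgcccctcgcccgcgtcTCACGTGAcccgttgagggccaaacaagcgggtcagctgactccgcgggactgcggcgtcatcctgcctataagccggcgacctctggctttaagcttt
Gla (chrX:134601006-134601255, minus strand): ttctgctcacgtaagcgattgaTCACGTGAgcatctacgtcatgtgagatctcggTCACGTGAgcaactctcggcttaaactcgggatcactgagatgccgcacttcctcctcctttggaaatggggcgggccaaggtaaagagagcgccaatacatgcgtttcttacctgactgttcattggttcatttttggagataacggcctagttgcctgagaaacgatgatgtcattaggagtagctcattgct
Mcoln1 (chr8:3500269-3500518, plus strand): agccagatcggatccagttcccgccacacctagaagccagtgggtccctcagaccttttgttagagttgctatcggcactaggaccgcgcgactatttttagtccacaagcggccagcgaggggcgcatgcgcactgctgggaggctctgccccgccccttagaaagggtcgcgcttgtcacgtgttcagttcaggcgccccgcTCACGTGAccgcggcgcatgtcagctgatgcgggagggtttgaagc
Atp6v1a (chr16:44139260-44139509, minus strand): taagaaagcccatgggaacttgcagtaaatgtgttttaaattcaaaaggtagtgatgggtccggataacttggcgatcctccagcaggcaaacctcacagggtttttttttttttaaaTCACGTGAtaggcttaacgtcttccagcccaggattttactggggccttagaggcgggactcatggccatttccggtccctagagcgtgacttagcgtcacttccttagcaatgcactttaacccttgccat

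RefSeq gave a window, from 250 bases before to 50 after the start, for 43 of the 51 members, and none for Ctsb, Ctsh, Asah1, Npc1, Atp6v1b2, Atp6v1c1, Atp6v1g1 and Atp6v1h. TCACGTGA lay in the windows of 7 of the 43 (16.3%), against 1.12% of all 27025 genes with a window and 2.32% of the 8882 of those whose Aβ mean reached 200. The other 2 holders, Atp6v0d1 and Atp6v0e, carried it across or after the start. The shorter CACGTG, which is contained in TCACGTGA, lay in 15 of the 43 (34.9%), against 8.09% of all genes and 12.1% of those with that mean. The 10-letter palindrome that extends TCACGTGA by G before and C after it lay in none of the 43, and in 0.370% of all genes. Each word reads the same on both strands, so 1 search covers both, and a match is a description of letters and not of binding.

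Levels differed widely among the members. Values per kb divide by the length of the longest coding transcript, so the order depends on that choice. Ctsl, with a mean of 23549 in Aβ, came to 3818 per kb at 6168 bases. Per kb of transcript, the highest level in Aβ was that of Ctsd, the aspartic protease cathepsin D, at 43354 normalized units, followed by Psap, the precursor of the saposins that help lipid hydrolases, at 21293, Ctsb, the cysteine protease cathepsin B, at 19448, and Lamp1, a major glycoprotein of the lysosomal membrane, at 18575. Ctsk, the collagen-degrading cathepsin best known from osteoclasts, was lowest at 26.8 per kb in Aβ, and the next lowest was Tfeb at 151. The most abundant glycosidase per kb was Hexa, the alpha subunit of β-hexosaminidase, at 2214, and among lipid and acyl enzymes Asah1, acid ceramidase, at 3004. For the pump, the most abundant per kb were Atp6v0c, the main proteolipid of the membrane ring, at 6543, Atp6v1e1, a stalk subunit, at 3792, and the accessory protein Atp6ap1 at 3110. Ctsb, Ctsd and Psap together held 39.3% of the members' summed signal in Aβ+DFMO, 47.1% in Aβ and 45.1% in Control. The 51 members together made up 1.38% of the signal of all genes in Aβ+DFMO, 1.73% in Aβ and 1.57% in Control.

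**Figure D1:**
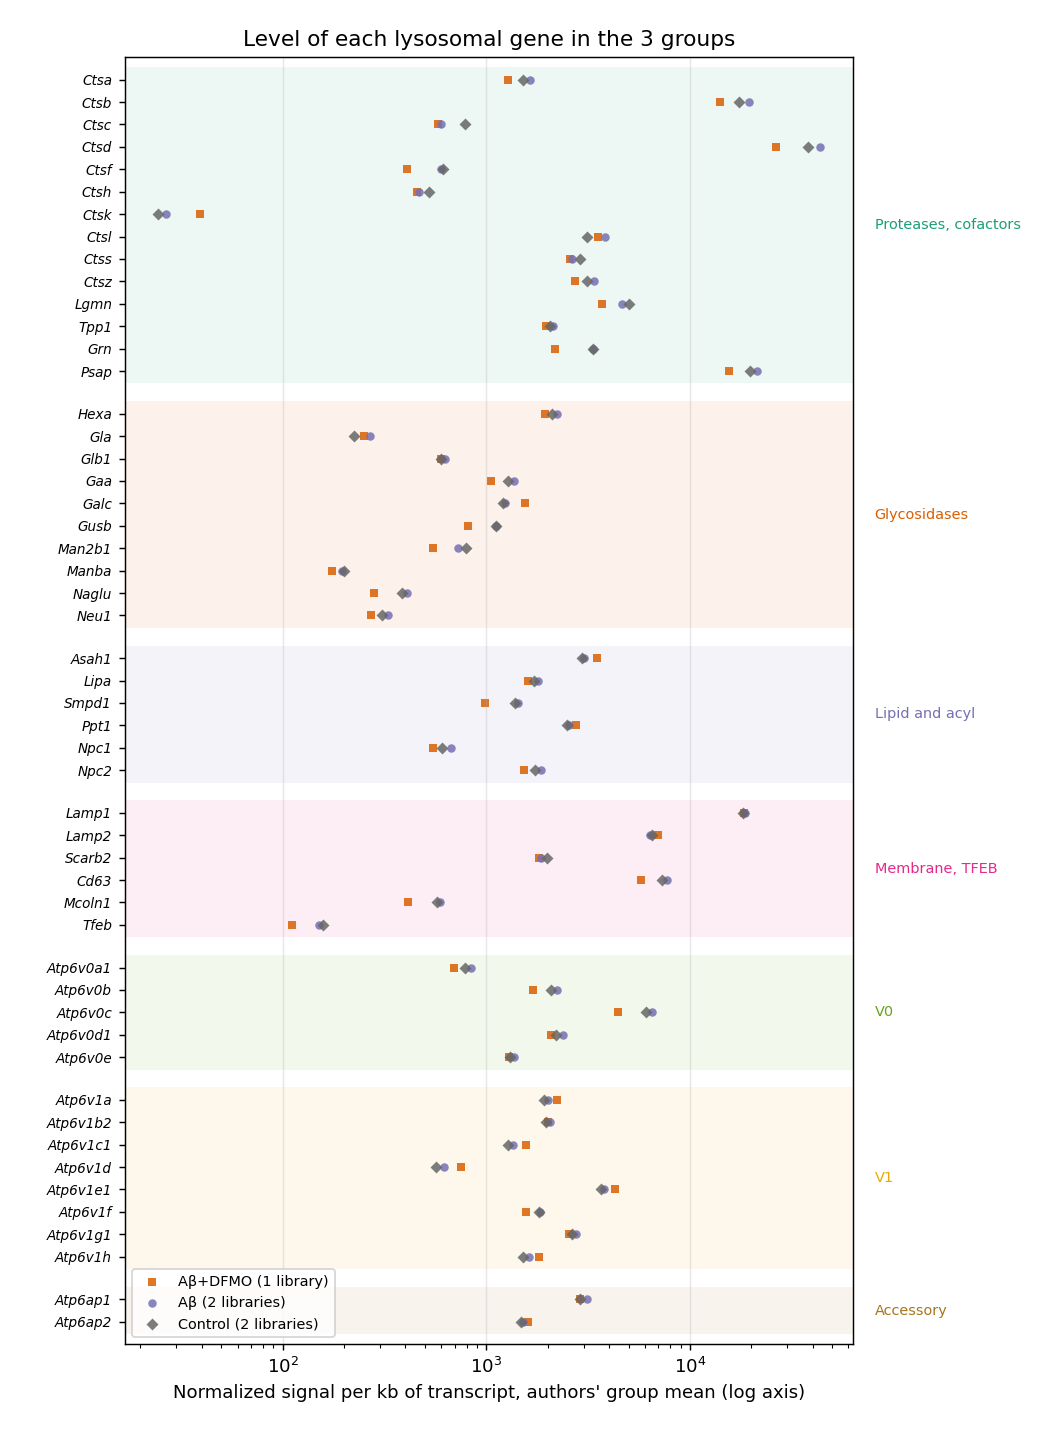
Normalized signal per kb of transcript (log axis) of each member by role, as the authors' group means in Aβ+DFMO (1 library), Aβ (2 libraries) and Control (2 libraries); group means carry no error bars. Lengths are those of the longest coding transcript. On this scale Ctsd, Psap, Ctsb and Lamp1 lie far above the rest, and for Ctsd and Ctsb the Aβ+DFMO mean lies left of the other 2.

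The first comparison asks what Aβ did to these genes. A single member, 1 of 51, was past the adjusted p threshold of 0.05 in the authors' deposited table, and it fell: Ctsc, cathepsin C, the dipeptidyl peptidase that activates serine proteases of immune granules. By the same rule 0.287% of all genes were called. The Ctsc mean was 1935 in Aβ and 2529 in Control (log2 ratio −0.39, implied SE 0.098 and adjusted p = 0.0296, from the authors' deposited table). The implied SE (standard error) is the size of the log2 ratio divided by the normal deviate of the authors' p-value. The gene is at chr7:88278085-88310888, plus strand (GRCm38, GENCODE M21). Beside it, 8 of the 21 microglia and macrophage markers fell and 1 rose, with a median log2 ratio of −0.38, while 0 of the 12 astrocyte markers were called by the authors' DESeq2 test (1 at an unadjusted p under 0.05), with a median of −0.01; no marker of either list was at 0 in any group. After the trend of log2 ratio on transcript GC content was removed, Ctsc did not pass (−0.37, adjusted p = 0.0639 after Benjamini-Hochberg adjustment over all genes with a GC value, of which 0.286% were called).

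Other cathepsins did not pass the authors' DESeq2 test, and they differed in sign. Ctsl, cathepsin L, a broad cysteine endopeptidase, had a mean of 23549 in Aβ and 19188 in Control (log2 ratio 0.30, implied SE 0.081 and adjusted p = 0.0910, from the authors' deposited table). Ctsd had 92214 in Aβ and 80433 in Control (log2 ratio 0.20, unadjusted p = 0.00497, adjusted p = 0.729 in the authors' deposited table). For Ctsb, the authors' deposited table gave 92240 in Aβ and 82354 in Control (log2 ratio 0.16, unadjusted p = 0.0179). These 3 log2 ratios were between 2 and 4 implied SEs above 0, and none passed the authors' DESeq2 test. Ctsl passed narrowly once GC and length trends were both removed (0.31, adjusted p = 0.0492 after Benjamini-Hochberg adjustment). That fit was planned only for Aβ+DFMO against Aβ, and the share of all genes called in it was not counted. It took the longest coding transcript, 6168 bases for Ctsl, as the length. The authors' deposited table gave log2 ratios of −0.14 for Ctss, a cathepsin of antigen-presenting cells, −0.15 for Ctsh, an aminopeptidase, and −0.12 for Lgmn, the asparaginyl endopeptidase legumain. In all, 8 of the 14 proteases and cofactors had a log2 ratio above 0 and 6 below, with a median of 0.08.

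No glycosidase, lipid enzyme, membrane protein or pump subunit passed in Aβ. Gla, which removes terminal α-galactose from glycolipids, had the largest log2 ratio outside the proteases, 0.27 (implied SE 0.132, unadjusted p = 0.0409 in the authors' deposited table), at 855 in Aβ and 709 in Control. Man2b1, the lysosomal α-mannosidase, had the lowest of the glycosidases at −0.13 in the authors' deposited table. The 10 glycosidases had a median of 0.07, the 6 lipid and acyl enzymes and cholesterol carriers of 0.06, and the 6 membrane proteins with Tfeb of −0.00. Npc1 and Npc2, which hand cholesterol out of the lysosome, had log2 ratios of 0.14 and 0.10 in the authors' deposited table.

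The pump stood at small values of a single sign. All 15 subunits and accessory proteins had a log2 ratio above 0 in Aβ, from 0.01 for Atp6v1f to 0.14 for Atp6v1d, both of V1, in the authors' deposited table, with a median of 0.09 at a median implied SE of 0.093. None passed the authors' DESeq2 test, and none had an unadjusted p under 0.05. Of all genes whose Aβ mean reached 200, 51.7% had a log2 ratio above 0. The 15 values come from the same 4 libraries and are not independent of each other. The pump gene that did rise is no member: Atp6v0d2, the alternative d subunit of V0 known from osteoclasts and macrophages, had a mean of 423 in Aβ and 120 in Control in the authors' deposited table (log2 ratio 1.81). Atp6v0d1, the widely used d subunit, had 3876 in Aβ and 3595 in Control (log2 ratio 0.11, implied SE 0.096, in the authors' deposited table).

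**Figure D2:**
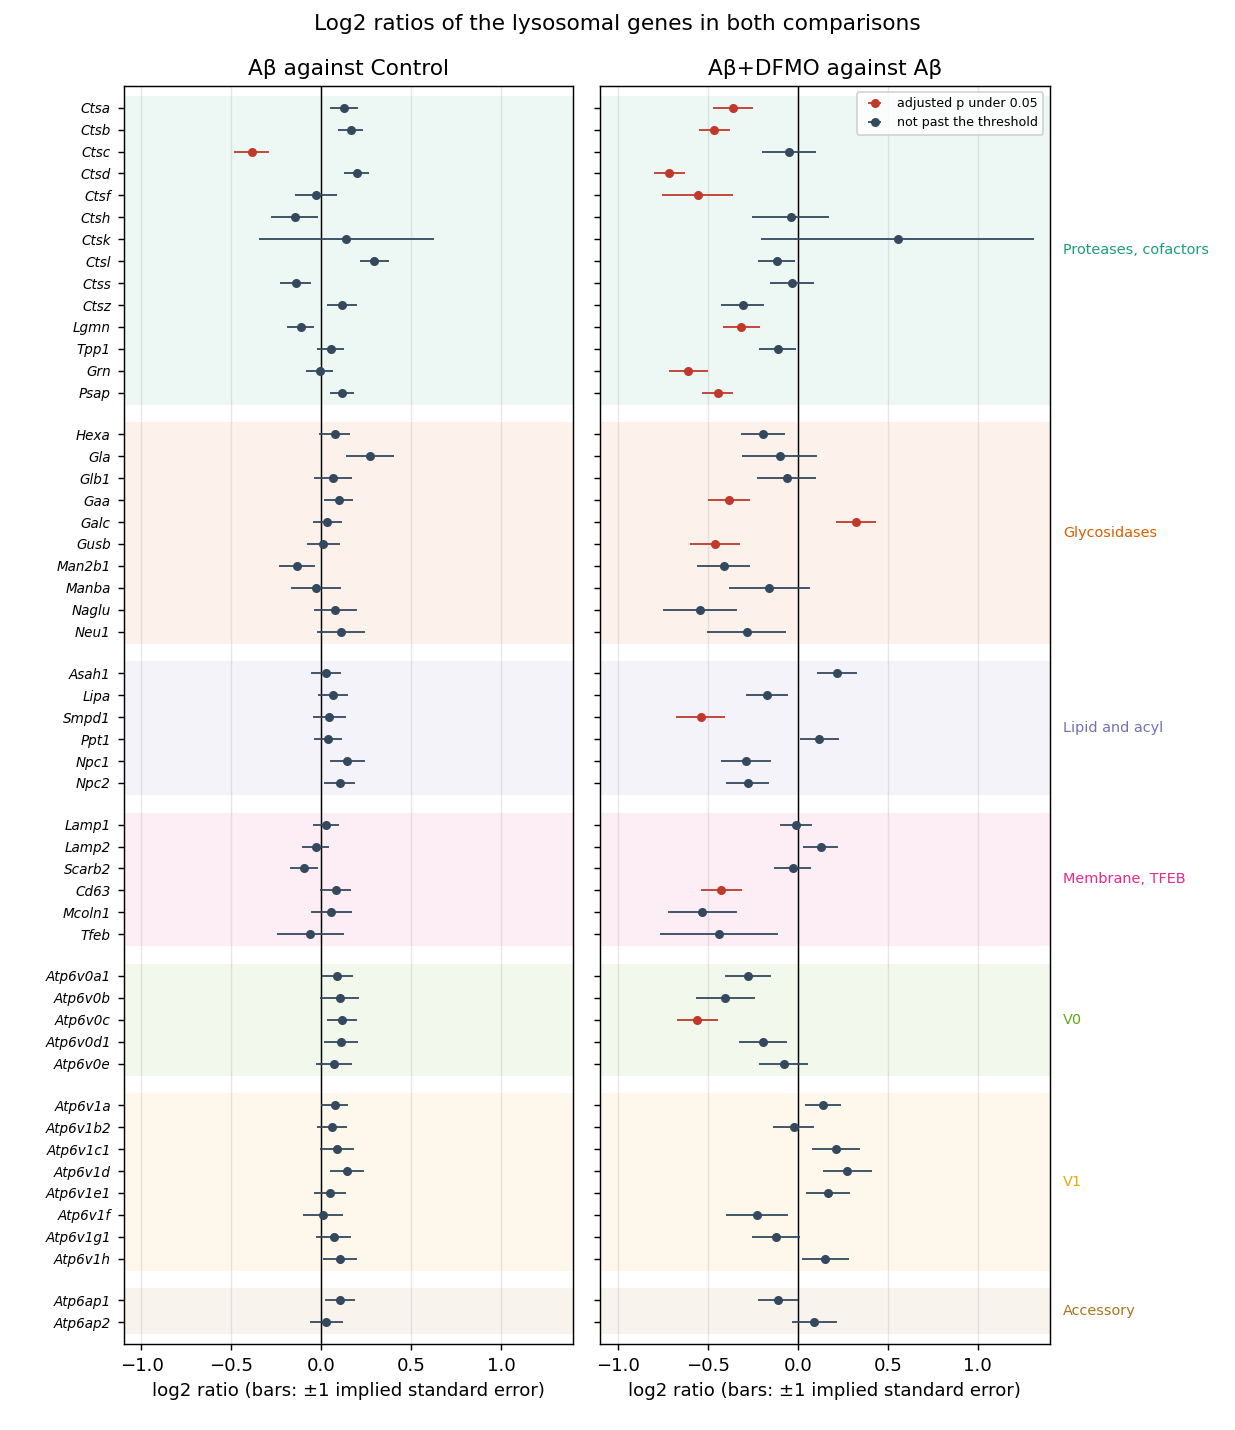
Log2 ratios of the members in Aβ against Control (left) and Aβ+DFMO against Aβ (right), as dots with bars of 1 implied SE to each side; red marks an adjusted p under 0.05. On the left Ctsc alone is red and the pump genes sit just right of 0; on the right 12 red members lie left of 0 and Galc right of it.

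The second comparison asks what DFMO did in Aβ-treated cultures. By the adjusted p of the authors' deposited table, 12 of the 51 members fell and 1 rose in Aβ+DFMO, where 9.18% of all genes were called and 5.18% were called lower. Among genes whose Aβ mean reached 200, which 50 of the 51 members reach, 8.17% were called lower and 6.15% higher. The members' median log2 ratio was −0.17, against 0.01 over all genes and −0.02 over those with that mean. The log2 ratio in this comparison followed the GC content of the transcript over all genes, so values are given also with that trend taken out; 3 members then passed, all lower, where 0.727% of all genes with a GC value were called lower. In that fit 37 of the 51 members lay below 0, with a median of −0.15, and 15 had the other sign than as deposited. Of the 11726 genes with a GC value whose Aβ mean reached 200, 5843 lay below 0.

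The proteases and their cofactors were the group with most calls: 7 of 14 fell. The largest difference was that of Ctsd, with 56196 in Aβ+DFMO, 92214 in Aβ and 80433 in Control in the authors' deposited table. The Aβ+DFMO mean was the lowest of the 3 (log2 ratio against Aβ −0.71, implied SE 0.087, adjusted p = 3.12e-13 in the authors' deposited table). Ctsb had 66861 in Aβ+DFMO, 92240 in Aβ and 82354 in Control in the authors' deposited table, which is −0.46 on the log2 scale against Aβ (implied SE 0.086, adjusted p = 8.76e-06). After removal of the GC trend, Ctsd (−0.38, adjusted p = 0.00213) and Ctsb (−0.47, adjusted p = 1.77e-05) passed again after Benjamini-Hochberg adjustment. Ctsd is at chr7:142375911-142388038, minus strand, and Ctsb at chr14:63122462-63145923, plus strand. The window of Ctsd holds the word printed above.

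Grn, which encodes progranulin, a secreted and lysosomal growth factor precursor, had 5112 in Aβ+DFMO, 7798 in Aβ and 7845 in Control in the authors' deposited table (log2 ratio against Aβ −0.61, adjusted p = 2.50e-06). Psap had 41504 in Aβ+DFMO, 56575 in Aβ and 52288 in Control (log2 ratio against Aβ −0.45, adjusted p = 2.09e-05, in the authors' deposited table). Both were lowest in Aβ+DFMO. Ctsa, the carboxypeptidase that protects β-galactosidase and neuraminidase, fell by 0.36, Lgmn by 0.31 and Ctsf, another cysteine cathepsin, by 0.56 in the authors' deposited table, the last at an adjusted p of 0.0488. Group means of Ctsa were 4660 in Aβ+DFMO, 5980 in Aβ and 5487 in Control, those of Lgmn 7378, 9176 and 9942, and those of Ctsf 805, 1185 and 1210 in the same order of groups; all 3 genes were lowest in Aβ+DFMO. After removal of the GC trend none of these 5 passed: Grn was then at −0.27 (adjusted p = 0.288), Psap at −0.18 (adjusted p = 0.461), Ctsa at −0.11, Lgmn at −0.20 and Ctsf at −0.20.

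The other proteases did not pass. Ctss (−0.03), Ctsh (−0.04) and Ctsc (−0.05) had log2 ratios near 0 in the authors' deposited table, with implied SEs of 0.123, 0.212 and 0.149. The Ctsc mean, 1871 in Aβ+DFMO, 1935 in Aβ and 2529 in Control in the authors' deposited table, was below Control in both Aβ groups. Without the GC trend, the log2 ratios of Aβ+DFMO against Aβ were larger in size for Ctsc (−0.34, adjusted p = 0.381), Ctss (−0.17, adjusted p = 0.823) and Ctsl (−0.31, adjusted p = 0.117), and 0.05 for Ctsh; none passed after Benjamini-Hochberg adjustment. Ctsl had 21686 in Aβ+DFMO, 23549 in Aβ and 19188 in Control in the authors' deposited table, and was the lowest in Control. Ctsk, at a log2 ratio of 0.55 in the authors' deposited table (means of 59.6 in Aβ+DFMO, 40.6 in Aβ and 36.8 in Control), rested on an estimated 8.0 reads of the Aβ+DFMO library and had an implied SE of 0.759. The estimate takes 7.45 normalized units as the worth of 1 read; the median member rested on 501 reads.

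Glycosidases included the member that rose. Galc, which removes galactose from the myelin lipid galactosylceramide, had 5910 in Aβ+DFMO, 4726 in Aβ and 4620 in Control in the authors' deposited table (log2 ratio against Aβ 0.32, implied SE 0.111, adjusted p = 0.0420). Gusb, β-glucuronidase, fell by 0.46 (adjusted p = 0.0145) and Gaa, acid α-glucosidase, which degrades glycogen, by 0.38 (adjusted p = 0.0189) in the authors' deposited table. Their means were 2184 and 3816 in Aβ+DFMO, 3010 and 4975 in Aβ, and 2989 and 4656 in Control, again lowest in Aβ+DFMO. Man2b1 (−0.41, adjusted p = 0.0524) and Naglu (−0.55, adjusted p = 0.0718), a glycosidase of heparan sulfate, lay just outside the threshold in the authors' deposited table. After removal of the GC trend, no glycosidase passed, Gaa turned to 0.13, and the median of the 10 was 0.04, against −0.24 as deposited. Galc was then at 0.22 (adjusted p = 0.536 after Benjamini-Hochberg adjustment).

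Of the 6 lipid and acyl enzymes and cholesterol carriers, Smpd1, acid sphingomyelinase, fell, with 2362 in Aβ+DFMO, 3439 in Aβ and 3334 in Control in the authors' deposited table (log2 ratio against Aβ −0.54, adjusted p = 0.00272). The authors' deposited table gave log2 ratios of −0.29 for Npc1, −0.28 for Npc2 and −0.17 for Lipa, the lipase of cholesteryl esters, against 0.22 for Asah1 and 0.12 for Ppt1, which removes palmitate from proteins. None of these 5 passed. After removal of the GC trend all 6 lay below 0, with a median of −0.20, and none passed in that fit with Benjamini-Hochberg adjustment. Of these Asah1 (−0.0001, implied SE 0.111) and Ppt1 (−0.05, implied SE 0.107) were within 1 implied SE of 0.

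Among membrane proteins, Cd63, a tetraspanin of late endosomes and exosomes, had 6382 in Aβ+DFMO, 8570 in Aβ and 8114 in Control in the authors' deposited table and fell (log2 ratio against Aβ −0.43, implied SE 0.116, adjusted p = 0.00614). It passed also after removal of the GC trend (−0.41, adjusted p = 0.0284 after Benjamini-Hochberg adjustment). Cd63 is at chr10:128900989-128912822, plus strand, and a pseudogene copy of it is also listed in the table, so how reads were shared between the 2 is uncertain. Lamp1 and Lamp2, which line the inner face of the lysosomal membrane, had log2 ratios of −0.01 and 0.13 in the authors' deposited table, with implied SEs of 0.091 and 0.097. Scarb2, the receptor that carries glucocerebrosidase to the lysosome, was at −0.03 in the authors' deposited table. Mcoln1, a calcium channel of lysosomes, was at −0.53 (adjusted p = 0.0558 in the authors' deposited table), and Tfeb at −0.44 on an estimated 35 reads with an implied SE of 0.329. Once the GC trend was removed, the sign turned for Tfeb (0.25), Lamp2 (−0.25) and Lamp1 (0.09), Mcoln1 was at −0.20 and Scarb2 at −0.15, and none of these 5 passed after Benjamini-Hochberg adjustment. The median of the 6 was then −0.17, against −0.23 as deposited.

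The 2 sectors of the pump had medians of opposite sign as deposited. All 5 V0 genes had log2 ratios below 0, with a median of −0.28, and Atp6v0c fell, with 5254 in Aβ+DFMO, 7740 in Aβ and 7154 in Control in the authors' deposited table (log2 ratio against Aβ −0.56, adjusted p = 9.35e-05). Atp6v0b, the second proteolipid of the ring, was at −0.40 and Atp6v0a1, the large a subunit, at −0.28 in the authors' deposited table, without passing. Of the 8 V1 genes 5 were above 0, with a median of 0.14 and a range of −0.23 for Atp6v1f to 0.27 for Atp6v1d in the authors' deposited table. Atp6v1d, a stalk subunit, had 2757 in Aβ+DFMO, 2280 in Aβ and 2067 in Control. None of the 8 V1 genes passed the authors' DESeq2 test, and 1 had an unadjusted p under 0.05. The catalytic subunit Atp6v1a was at 0.14, Atp6v1b2 at −0.02, and the accessory proteins Atp6ap1 and Atp6ap2 at −0.11 and 0.09 in the authors' deposited table. The median GC content was 53.5% for V0 and 46.7% for V1 transcripts. After removal of the GC trend, the medians were −0.07 for V0 and −0.01 for V1, and no pump gene passed after Benjamini-Hochberg adjustment: Atp6v0c was then at −0.22 (adjusted p = 0.579). Atp6v0c also has 2 named pseudogenes in the table, so its reads may be shared with them.

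Over the 51 members, log2 ratio and GC content had a Spearman's rho of −0.78 in Aβ+DFMO against Aβ and 0.11 in Aβ against Control; over 11726 genes whose Aβ mean reached 200 these were −0.71 and 0.12. The genes share their libraries and are not independent. All 16 members with a GC content over 54% were below 0 in Aβ+DFMO against Aβ, with a median of −0.44. Of the 13 members under 46%, 8 were above 0, with a median of 0.12. Both limits were set here and not planned, and the shares of all genes in these GC ranges were not computed. The 15 members with CACGTG in their window had a median log2 ratio of −0.31, against −0.18 for the 28 with a window but without that word. The median GC contents of these sets of members were 53.4% and 50.4%.

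**Figure D3:**
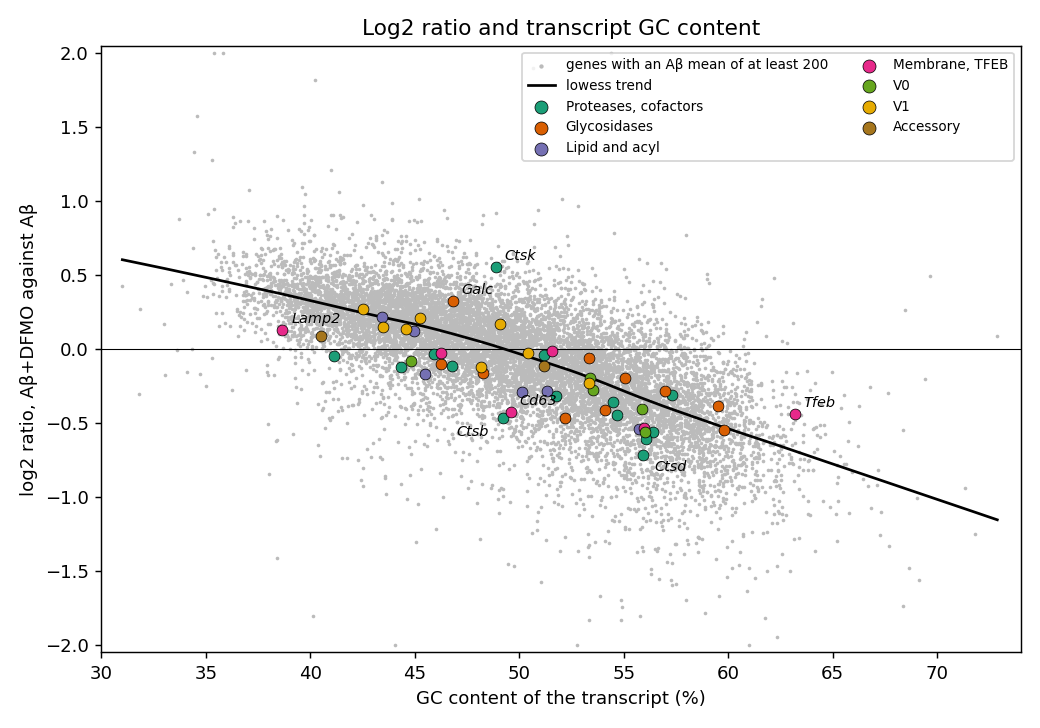
Log2 ratio of Aβ+DFMO against Aβ by GC content of the transcript (%) for genes whose Aβ mean reached 200 (grey; values beyond the axis are drawn at its edge) and the members, coloured by role, with the lowess trend as a line. Of the 51 members 37 lie below the line, and the 3 that passed with the trend out, Ctsb, Ctsd and Cd63, are among those farthest below it.

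**Figure D4:**
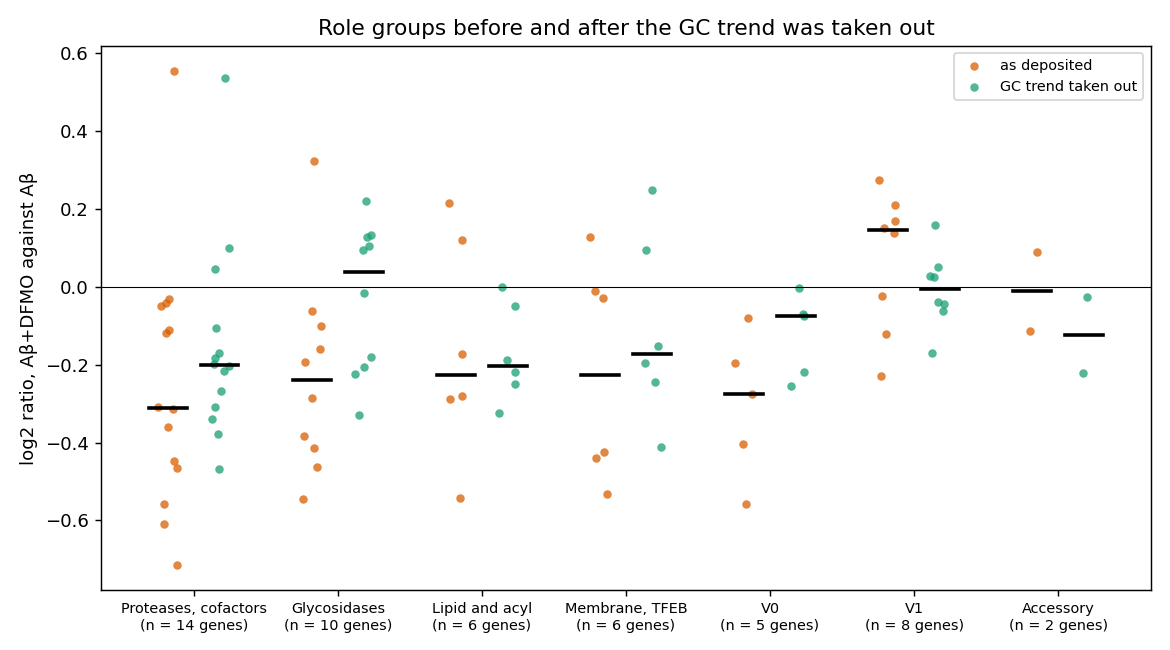
Log2 ratio of Aβ+DFMO against Aβ of each member by role group, as deposited (orange) and after removal of the GC trend (green); black bars are medians over genes. The V0 and V1 medians, −0.28 and 0.14 as deposited, come to −0.07 and −0.01, and the protease median is −0.20 with the trend out, against −0.31 as deposited.

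Relative to Control, for which no test of Aβ+DFMO was available, 35 of the 51 members had a lower mean in Aβ+DFMO, with a median log2 ratio of −0.17. Of the 11780 genes whose Aβ mean reached 200, 6013 had a lower mean in Aβ+DFMO than in Control, with a median of −0.01. The largest group, 25 members, lay above Control in Aβ and below it in Aβ+DFMO, among them Ctsb, Ctsd, Psap and Cd63. The share of all genes with that pattern was not computed. A further 15 lay above Control in both, 7 of them pump genes, and 10 below Control in both. Both comparisons use the same Aβ libraries, so a high Aβ mean moves them in opposite directions, and the pattern is given as levels only.

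Other lists related to the lysosome, which also hold sorting genes, regulators and cysteine protease inhibitors, had 87 measured genes that are no members. Of these 2 rose and 1 fell in Aβ, where 0.287% of all genes were called. In Aβ+DFMO against Aβ 2 rose and 10 fell. There 5.18% of all genes were called lower, and 8.17% lower and 6.15% higher among genes whose Aβ mean reached 200. The median log2 ratio of the 87 was −0.15 as deposited and −0.04 after removal of the GC trend. In Aβ the risers were Atp6v0d2 and Gpnmb, a glycoprotein of phagocyte lysosomes, and Laptm5, a lysosomal protein of blood cells that is also on the microglial list, fell by 0.53 in the authors' deposited table. In Aβ+DFMO, Gpnmb fell by 1.04 and Cd68, a glycoprotein of macrophage lysosomes, by 1.01 in the authors' deposited table. These 2 also passed after removal of the GC trend (−1.02 and −0.84). Called lower in the authors' deposited table were also the sulfatase genes Arsa (−0.61) and Sgsh (−0.76), the mannosidase Man2b2 (−0.57), the chloride transporter Clcn7 (−0.51), the transporter Abca2 (−0.67), the channel Tpcn1 (−0.58), Manbal (−0.72) and the cysteine protease inhibitor Cst3 (−0.52). M6pr, the mannose 6-phosphate receptor that sorts hydrolases, rose by 0.39, and Ostm1, the partner of Clcn7, by 0.36 in the authors' deposited table. Of these 10 last-named genes none passed after removal of the GC trend after Benjamini-Hochberg adjustment. Tcirg1, the a3 subunit of V0, had 932 in Aβ+DFMO, 1211 in Aβ and 1106 in Control in the authors' deposited table, and did not pass in either comparison.

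In Aβ+DFMO against Aβ, the 21 microglia and macrophage, 12 astrocyte and 12 oligodendrocyte lineage markers had median log2 ratios of −0.48, −0.44 and −1.05. After removal of the GC trend the medians were −0.29, −0.33 and −0.79. Other marker lists differed. The 6 neuronal markers measured had a median of 0.08 as deposited, with 4 above 0 and 2 below. The 8 fibroblast and mural cell markers had a median of −0.13, with 3 above 0 and 5 below, and of 0.22 after removal of the GC trend. As deposited they ranged from −0.26 to 1.37. Acta2 (0.28) and Myh11 (1.37) rose in the authors' deposited table, and no marker of that list fell. Of the 21 microglial markers 19 lay below 0 and 2 above, from −1.78 to 0.65 as deposited. After removal of the GC trend 15 lay below 0 and 6 above. Among them Lyz2, the lysozyme of macrophages, fell by 0.51 in the authors' deposited table and Csf1r was at −0.53 without passing. Their part in the lower Ctsd, Ctsb and Cd63 was not tested.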

How the data were processed

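Messenger RNA was measured by sequencing of read pairs from poly(A)-enriched RNA, per the labels' protocols. The submitters' processing notes name STAR 2.7.3a, Partek, DESeq2 and FastQC, and the builds mm10 and GRCm39, with no role for each; the counting method, annotation and strand setting were not given in the sources used here. The authors deposited, per the file headers, a normalized signal per gene as least-squares group means, their ratio and log2 ratio, and p-values with adjusted p-values, which were checked to follow from Benjamini-Hochberg adjustment over all 18783 genes. Values per library were not used, so nothing was re-tested on counts. Total reads are a signal column of a separate deposited summary, per the file headers; only its row for the Aβ+DFMO library names a single sample, and the other rows were not used one by one. Exact zeros did not occur among the members.

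Computed here (Python 3.11.15, statsmodels 0.14.6) were implied SEs, assuming a Wald test, signal per kb, and a lowess trend (span 0.3) of the log2 ratio on GC content of the longest coding transcript (GENCODE M21), fitted on genes whose Aβ mean reached 200. Residuals were tested against the implied SE and adjusted over 18557 genes. The steps were tried on simulated data with a straight-line GC trend, normal noise and changes larger than the members' residuals. That trial therefore does not cover changes of the size called here. In Aβ against Control 76.6% of p-values were over 0.5, so these tests may be conservative, and a gene not called is not shown to be unchanged. In the Aβ+DFMO column 80.4% of the 7316 genes under 27 reads' worth were whole multiples of 1 read's worth within 0.05, too few to recover counts. Exons of 13 members, Ctsa, Ctsb, Grn and Galc among them, overlap those of another gene in the table, and their reads may be mixed. The members and lists were chosen with earlier results of these data known. Genes outside the 51 were named where they passed, up to 4 of each list, with Atp6v0d2 and Tcirg1 in any case (another gene of that rule is not reported here); Csf1r, Gfap, Aqp4, Aldoc, Clcn7, Ostm1, Tfe3, Mitf and Igf2r were added after their values were seen. A replicate block, libraries left out in turn, other thresholds, centring and trends were the alternatives set out.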

Additional observations from a re-analysis of the deposited data

How the results depend on the processing

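The number of members called in Aβ against Control was 1 as reported. It was 0 at an adjusted p under 0.01 and 0 after removal of the GC trend, and 2 at an adjusted p under 0.1. With median centring, or with p-values adjusted over genes whose Aβ mean reached 200, it was 1. With GC and length trends out, Ctsl passed as higher (0.31, adjusted p = 0.0492 after Benjamini-Hochberg adjustment). Such a fit was not planned for this comparison. Ctsc did not pass in that fit (−0.36, adjusted p = 0.0869). For Aβ+DFMO against Aβ the 13 calls became 7 at an adjusted p under 0.01, 3 after removal of the GC trend and 3 with GC and length trends out, and between 12 and 17 under the other 3 settings. Taking out the GC trend turned the sign of 15 members in that comparison. One of them was called, Gaa, at 0.13, and at 0.13 with length as well; the other 14 were not called either way, Ctsz (0.10), Hexa (0.09), Neu1 (0.11), Tfeb (0.25) and Lamp2 (−0.25) among them. A further 9 called members kept their sign without passing; the cause was not tested. The medians over all 51 members moved by less than their median implied SE, to −0.15 in Aβ+DFMO against Aβ under either centring or GC trend. Medians of some role groups moved by more than theirs in that comparison with the GC trend out. Proteases and cofactors went from −0.31 to −0.20 and glycosidases from −0.24 to 0.04. V0 went from −0.28 to −0.07 and V1 from 0.14 to −0.01. No paired analysis was possible because values per gene are given only as group means; for the same reason no library could be left out in turn, and both of these were not run. Depth limits the low members of the Aβ+DFMO library, above all Ctsk and Tfeb.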

Other observations

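Receptors and regulators of the lysosome not described above stayed outside the authors' threshold in both comparisons, apart from M6pr. None of the 17 regulators other than Tfeb passed in either, with medians of 0.00 in Aβ and −0.03 in Aβ+DFMO against Aβ; at an unadjusted p under 0.05 the authors' DESeq2 test had 1 and 4 of them. Among them Tfe3 and Mitf, relatives of Tfeb, had means of 1274 and 492 in Aβ+DFMO, 1700 and 503 in Aβ, and 1828 and 547 in Control in the authors' deposited table. Igf2r, the larger mannose 6-phosphate receptor, had 2295 in Aβ+DFMO, 2548 in Aβ and 1942 in Control in the authors' deposited table.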
